A study of Mus musculus with 9 samples.

Results

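The activator protein 1 (AP-1) genes described here are Jun, Junb and Jund of the Jun family, Fos, Fosb, Fosl1 and Fosl2 of the Fos family, and 2 related members of the basic leucine zipper class, Atf3 and Maff. These 9 genes were taken from a list of names, out of 21887 protein-coding genes, and the window of each gene was its GRCm38 span with 2 kb on either side. The chromatin was that of lung endothelial cells isolated from wild-type (WT) mice, with 1 library each for H3K4me3, for the 7 acetylations H2AK5ac, H3K9ac, H3K14ac, H3K18ac, H3K23ac, H3K27ac and H4K8ac, and for the control antibody IgG. The labels state neither the age, sex or treatment of the mice nor whether cells of several mice were pooled. The method, ACT-seq, uses an antibody to hold the transposase Tn5 on nucleosomes that carry the antibody's target, so that the DNA beside them is cut and tagged. No target has a replicate, so no value below has a replicate error and no test was made.

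AP-1 is a dimer of a Jun protein with a Jun, Fos or ATF protein, held together by a leucine zipper. It binds the short element TGANTCA, known as the TRE, and its ATF-containing forms also bind the cyclic AMP element TGACGTCA, known as the CRE. Several of the genes are immediate-early genes: serum, growth factors, shear stress or injury switch them on within minutes through factors already present in the cell, with no need for new protein. H3K4me3 is typical of promoters of active and poised genes, and the acetylations of histone tails mark active promoters and enhancers.

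The deposited table joins 8 peak lists under shared names. The lists were separated by their genome order and their commonest peak widths, and each is called here by the library whose reads were densest over its regions. That library exceeded the second densest by 1.99 times for H3K27ac, the smallest margin, and by 23.8 times for H2AK5ac, the largest. The second densest library was IgG for 5 lists. The 2 smallest margins over IgG were 44.1 CPM per kb for the H3K27ac library against 22.2 for IgG, and 13.4 for the H3K14ac library against 5.96 for IgG (CPM, reads divided by the library total in the table, times 1000000). Library totals of the marks ran from 1477463 reads for H3K4me3 to 10044130 for H3K14ac. IgG had 365999 reads, found at 0.156% of the identifiers in the table. Of 10 endothelial marker genes 9 had peaks of all 8 lists, against 44.6% of all protein-coding genes. The tight junction gene Cldn5 had none of any list. All 8 lists were also present at 2 of 7 lung epithelial markers, 1 of 6 leukocyte markers and 1 of 6 mesenchymal markers, among them the surfactant gene Sftpc at a summed 73.1% of its window. Whether other cell types add to the values below was not tested.

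All 9 AP-1 genes carried peaks of all 8 lists, against 44.6% of all protein-coding genes. With peaks of the smallest width of each list left out, all 8 lists were present at 5 of the 9 (Fosl2, Junb, Jund, Atf3 and Maff), against 18.6% of all genes. The 9 genes held 348 of the table's 1309635 peaks, with a median of 35 a gene, against 19 over all genes. Maff had 62 peaks, Fosl2 59, Fosl1 42, Fosb and Atf3 35 each, Junb 32, Fos 30, Jun 29 and Jund 24. At least 1 base under peaks of all 8 lists at once was found at 7 of the 9 genes, the exceptions being Fosb and Fosl1, against 23.7% of all genes.

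The share of the window under peaks was higher than the all-gene median in 71 of the 72 pairings of an AP-1 gene with a list. For H3K4me3 the median AP-1 gene had 23.3% of its window under peaks, with a range of 8.95% to 43.5%, against 1.73% for the median of all genes. For H3K9ac it had 21.0%, with a range of 9.34% to 47.5%, against 0.715%. For H3K23ac it had 19.5%, with a range of 7.92% to 40.1%, against 1.41%. These 3 lists covered the most bases at the AP-1 genes, whereas over all genes H3K14ac had the highest median share.

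The median share of the AP-1 genes was 14.1% for H3K18ac, against 2.02% over all genes. It was 13.96% for H3K14ac, against 3.87%, and 13.9% for H3K27ac, against 1.86%. It was 13.8% for H4K8ac, against 2.15%, and 6.99% for H2AK5ac, against 0.245%. At least 1 peak was present at 89.8% of all genes for H3K14ac, 77.3% for H3K18ac, 75.4% for H4K8ac, 71.6% for H3K27ac, 69.7% for H3K23ac, 69.6% for H3K4me3, 59.2% for H3K9ac and 55.2% for H2AK5ac, so presence alone is common. The 1 pairing below the all-gene median was H3K14ac at Fosb, where 2 peaks covered 276 bases, or 2.42% of the window.

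**Figure D1:**
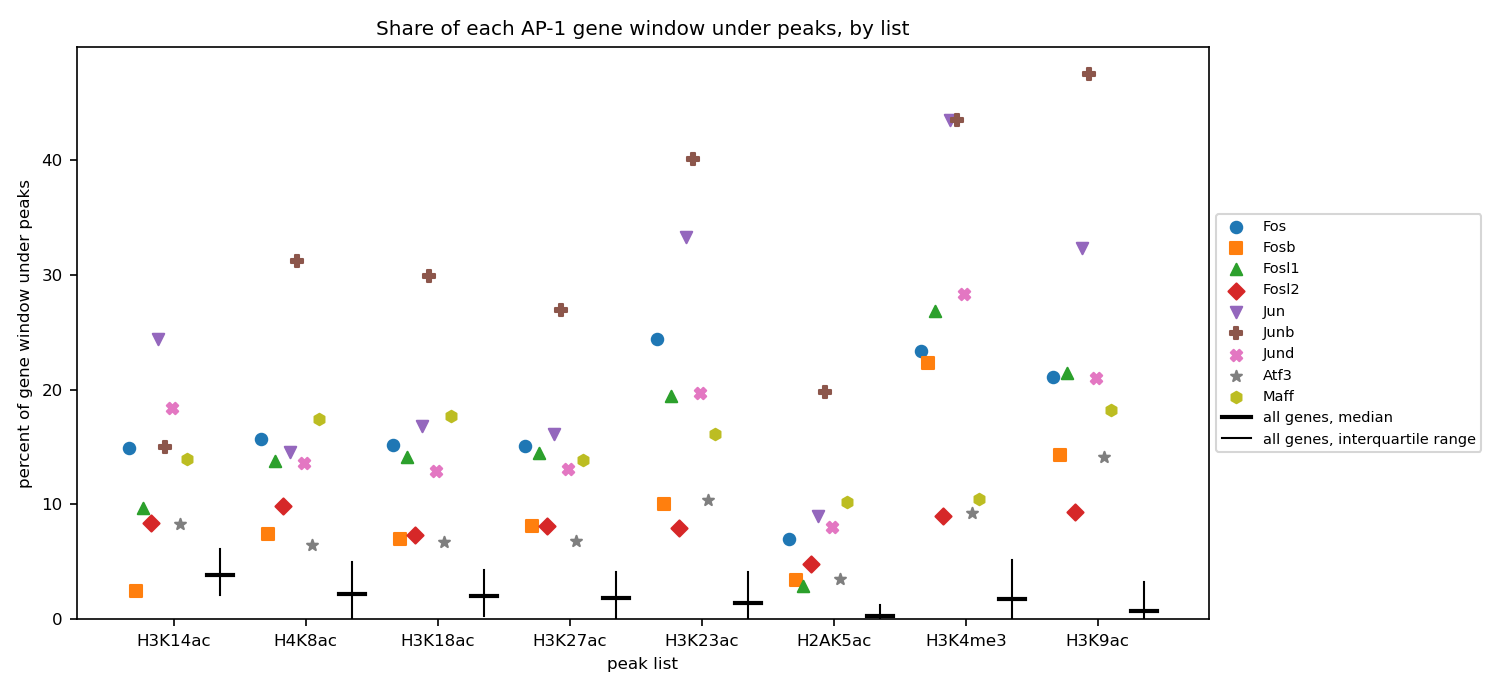
Percent of the gene window (span plus 2 kb on either side) under peaks of each list, 1 symbol for each AP-1 gene, with the median of all 21887 protein-coding genes (thick line) and their interquartile range (thin line) to the right. Junb holds the highest share in 6 of the 8 lists, Jun is highest for H3K14ac, and Jun and Junb are level at 43.5% for H3K4me3.

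Added over the 8 lists, so that a base under several lists counts several times, the shares put Junb first at 254%, followed by Jun at 190%, Fos at 137%, Jund at 135%, Fosl1 at 123%, Maff at 118%, Fosb at 74.9%, Atf3 at 65.6% and Fosl2 at 64.7%. The median of all genes was 15%. Fosl2, Atf3 and Maff are among the longest of the 9 genes, and the share depends on the length of the window. The AP-1 windows had a median length of 11423 bases, against 21169 over all genes. In a window of equal length, 2 kb on either side of the annotated start, the summed share of the 8 AP-1 genes with an annotated start had a median of 242%, against 48.6% over 17492 genes. All 8 of these genes had peaks of all 8 lists in that window, against 27.6% of genes. The base of the start itself lay under an H3K4me3 peak at 6 of the 8 genes, against 44.2% of genes, under H3K9ac at 6, against 29.5%, and under H3K23ac at 6, against 29.7%. It lay under H3K27ac at 4 genes, against 41.4%, under H3K18ac at 4, against 40.3%, under H4K8ac at 4, against 39.5%, under H3K14ac at 3, against 35.2%, and under H2AK5ac at 2, against 8.86%. With the start that the RefSeq promoter entry gives for Fosb, H3K4me3 and H3K23ac were at 5 genes each. Maff is counted by the outermost of its annotated starts, which no list covered, whereas its middle start lay under all 8 lists. The counts of every list thus depend on the start taken for Maff.

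Peaks at the AP-1 genes were wide for their list. The comparison is with all peaks of the list, those outside genes included. Peaks at other genes were not taken alone, so the width is not shown to be particular to AP-1 genes. In each list the smallest width is also the commonest, from 102 bases for H4K8ac to 206 for H3K23ac. Peaks wider than that made up 92.3% of the H3K4me3 peaks at AP-1 genes, against 44.1% in the whole list. For H3K18ac the share was 92.7% at AP-1 genes, against 51.4% in its list, and for H3K27ac 95.3% at AP-1 genes, against 80.0%. For H3K9ac it was 71.8% at AP-1 genes, against 38.9% in its list, and for H3K23ac 59.1% at AP-1 genes, against 24.1%. For H4K8ac it was 58.9% at AP-1 genes, against 41.5% in its list, and for H3K14ac 51.8% at AP-1 genes, against 19.1%. H2AK5ac was the exception, with 20.9% at AP-1 genes against 23.9% in the list.

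The promoter letters of the genes whose annotated start lay under most lists are shown to place the elements named in the next paragraphs. RefSeq promoter entries on GRCm38.p6 were matched for 8 of the 9 genes, and for Maff with 3 annotated starts. Fosl1 was not matched. Each line is the 250 bases before the start, 5′ to 3′ on the strand of the gene. The places are chr4:95052223-95052472 (minus strand) for Jun, chr8:84978749-84978998 (minus) for Junb, chr12:85473640-85473889 (plus) for Fos, chr1:191183334-191183583 (minus) for Atf3 and chr15:79347270-79347519 (plus) for the middle start of Maff. Capitals mark matches on either strand to the TRE (TGANTCA), the full CRE (TGACGTCA), the CArG box, the CCAAT box, the TATA box (TATAAA), an ETS element (GGAAGT), the shortened CRE (TGACGT) and the CRE-like TGANNTCA. The shortened and the CRE-like form were added after the letters had been read. The full CRE holds the shortened one and is itself a match to the CRE-like form.
Jun: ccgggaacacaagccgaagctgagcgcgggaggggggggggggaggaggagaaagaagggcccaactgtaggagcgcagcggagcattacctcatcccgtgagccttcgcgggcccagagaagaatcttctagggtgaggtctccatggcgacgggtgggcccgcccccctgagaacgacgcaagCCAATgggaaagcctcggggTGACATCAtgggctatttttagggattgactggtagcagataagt
Junb: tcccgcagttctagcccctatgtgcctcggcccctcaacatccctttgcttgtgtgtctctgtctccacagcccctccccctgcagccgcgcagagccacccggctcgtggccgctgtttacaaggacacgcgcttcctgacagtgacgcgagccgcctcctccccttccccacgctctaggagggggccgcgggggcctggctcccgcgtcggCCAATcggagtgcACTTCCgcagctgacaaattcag
Fos: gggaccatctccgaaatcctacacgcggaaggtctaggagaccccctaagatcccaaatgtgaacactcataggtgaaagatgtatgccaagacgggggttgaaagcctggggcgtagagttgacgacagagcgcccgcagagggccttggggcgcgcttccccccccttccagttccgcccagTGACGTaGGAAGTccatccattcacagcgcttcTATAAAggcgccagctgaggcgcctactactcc
Atf3: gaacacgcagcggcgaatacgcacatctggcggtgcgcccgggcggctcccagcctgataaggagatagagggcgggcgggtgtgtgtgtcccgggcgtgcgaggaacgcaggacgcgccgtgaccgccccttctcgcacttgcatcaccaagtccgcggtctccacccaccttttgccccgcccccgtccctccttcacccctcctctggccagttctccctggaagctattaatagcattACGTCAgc
Maff middle start: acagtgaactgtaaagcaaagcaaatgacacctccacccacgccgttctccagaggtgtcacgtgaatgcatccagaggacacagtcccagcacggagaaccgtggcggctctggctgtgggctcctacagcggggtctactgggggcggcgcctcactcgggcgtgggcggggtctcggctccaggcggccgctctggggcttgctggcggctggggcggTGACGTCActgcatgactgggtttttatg

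Jun encodes c-Jun, the AP-1 subunit that the kinase JNK phosphorylates, and lies at chr4:95049036-95052222 on the minus strand. Peaks covered 24.4% of its window for H3K14ac, 14.6% for H4K8ac, 16.8% for H3K18ac, 16.1% for H3K27ac, 33.3% for H3K23ac, 8.97% for H2AK5ac, 43.5% for H3K4me3 and 32.4% for H3K9ac. Its widest H3K4me3 peak, of 2418 bases, was the widest of any list at the 9 genes. With the start as position 0 and negative positions before it, that peak ran from -749 to 1668. The annotated start lay under 7 lists, all but H2AK5ac, whose peaks at Jun were all of the smallest width.

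The lists covered different stretches of Jun. H3K27ac, H3K18ac and H4K8ac each had a peak of 746 to 755 bases that began between -653 and -614 and stopped shortly after the start. H3K27ac, for example, covered 892 of the 2000 bases before the start and 131 of those after it. H3K4me3 covered 1187 before and 1694 after, and H3K23ac 956 before and 1258 after, with a peak of 936 bases from position 699 inside this intronless gene. The promoter letters of Jun hold TGACATCA, a match to TGANNTCA, at -45 to -38 and a CCAAT box at -65 to -61. Among 32851 promoter windows of the same length, 11.9% hold TGANNTCA and 33.8% hold CCAAT.

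Junb encodes the Jun protein that mouse embryos need to form the blood vessels of the placenta and yolk sac, and lies at chr8:84976909-84978748 on the minus strand. Its values were 14.97% of the window for H3K14ac, 31.2% for H4K8ac, 29.9% for H3K18ac, 26.9% for H3K27ac, 40.1% for H3K23ac, 19.8% for H2AK5ac, 43.5% for H3K4me3 and 47.5% for H3K9ac. The summed share was higher than that of 99.995% of all genes. The start lay under all 8 lists, which overlapped from -187 to 53.

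H3K4me3 at Junb took up the gene body, from -187 to 1722, as 1 peak of 1910 bases. All 7 acetylations had a peak over the start that overlapped its edge, and inside it H3K9ac had a further peak from 674 to 1418 and H3K23ac one from 961 to 1368. Before the start, a stretch from -1889 to -826 held peaks of 6 lists and neither H3K4me3 nor H3K14ac, with 851 bases of H3K18ac, 802 of H4K8ac and 758 of H3K27ac as their widest peaks at this gene. Past the 3′ end of the gene, a stretch from 1867 to 2581 held all 8 lists, 2 times with all of them on the same bases, at 2127 to 2192 and 2444 to 2499. The promoter letters hold CCAAT at -36 to -32 and ACTTCC, which is GGAAGT on the other strand, at -23 to -18. GGAAGT is present in 19.7% of the promoter windows.

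Jund encodes the Jun protein that is present in resting cells and is bound by menin, and spans chr8:70697739-70700616 on the plus strand. Peaks covered 18.4% of the window for H3K14ac, 13.6% for H4K8ac, 12.9% for H3K18ac, 13.1% for H3K27ac, 19.7% for H3K23ac, 8.05% for H2AK5ac, 28.3% for H3K4me3 and 21.0% for H3K9ac. No list covered its annotated start, which was also so for 47.6% of genes. The 1 stretch with all 8 lists began 653 bases inside the gene and ran to 2482, and all 8 lists shared the bases from 984 to 1174. H3K4me3 there formed 1 peak of 1734 bases from 749 to 2482, and H3K23ac 1 peak of 1203 bases from 984. Of the 24 peaks in the window, 2 overlapped the neighbour Iqcn.

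Fos encodes c-Fos, which binds DNA only with a partner such as a Jun protein, and lies at chr12:85473890-85477274 on the plus strand. Its values were 14.9% of the window for H3K14ac, 15.7% for H4K8ac, 15.2% for H3K18ac, 15.1% for H3K27ac, 24.4% for H3K23ac, 6.99% for H2AK5ac, 23.3% for H3K4me3 and 21.1% for H3K9ac. All 8 lists were present in 2 stretches. The stretch over the start ran from -459 to 874, with a 1284-base H3K4me3 peak, and the other ran from -1843 to -1150. The start lay under 6 lists, all but H3K14ac and H2AK5ac.

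Most acetylations at Fos lay mainly before the start, and H2AK5ac lay mainly after it. H3K27ac covered 936 bases of the 2000 before the start and 178 of those after it, H3K18ac 927 and 191, and H4K8ac 966 and 89. H2AK5ac covered 129 bases before the start and 387 after it. H3K4me3 was near even, with 899 and 824. The promoter letters hold TGACGT at -66 to -61, in the region of the CRE known from work on this gene, and TATAAA at -33 to -28. TGACGT is present in 6.47% of the promoter windows and TATAAA in 12.4%. The CArG box of the serum response element, bound by SRF, was not found in the 250 bases shown, and 1.47% of the windows hold one. Bases farther before the start were not searched, so a CArG box there would not be seen.

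Fosb encodes FosB and, by splicing, a shortened form that is long-lived in neurons, and spans chr7:19302696-19310118 on the minus strand. Peaks covered 2.42% of the window for H3K14ac, 7.39% for H4K8ac, 6.96% for H3K18ac, 8.12% for H3K27ac, 10.04% for H3K23ac, 3.39% for H2AK5ac, 22.3% for H3K4me3 and 14.3% for H3K9ac. The start of the span lay under 3 lists, H3K23ac, H3K4me3 and H3K9ac, and the RefSeq promoter entry places the start slightly inside the span, at 19310045, where H3K9ac alone covered it. The widest H3K4me3 peak, of 1024 bases, was not at the start but inside the gene, from 981 to 2004, in a stretch that held all 8 lists without a base under all of them. Near the start Fosb had the lowest summed share of the 8 genes, and 77.5% of genes were lower, against 90.8% to 99.9% for the other 7.

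Fosl1 encodes FRA-1 and Fosl2 encodes FRA-2, Fos proteins without the strong activation domain of c-Fos. Fosl1 spans chr19:5447698-5455938, and its distances are given from the lower-coordinate end. Its values were 9.66% of the window for H3K14ac, 13.8% for H4K8ac, 14.1% for H3K18ac, 14.4% for H3K27ac, 19.5% for H3K23ac, 2.87% for H2AK5ac, 26.8% for H3K4me3 and 21.5% for H3K9ac. Peaks stood at both ends of the gene: a stretch of 7 lists from -126 to 1518 and a stretch of 8 lists from 8426 to 10317. The second lies at the neighbour Ccdc85b, whose span overlaps that of Fosl1 by 2776 bases and whose annotated start, at position 9865, lay under 6 lists. Of the 42 peaks in the Fosl1 window, 19 overlapped Ccdc85b, so the values cannot be given to Fosl1 alone.

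Fosl2, at chr5:32136472-32157840 on the plus strand, was the longest of the 9 genes and had peaks along its length. Its values were 8.34% of the window for H3K14ac, 9.88% for H4K8ac, 7.31% for H3K18ac, 8.10% for H3K27ac, 7.92% for H3K23ac, 4.83% for H2AK5ac, 8.95% for H3K4me3 and 9.34% for H3K9ac. The longest run of bases under all 8 lists at any AP-1 gene, 548 bases, lay before its start, from -1011 to -464. There the H3K18ac peak had 1001 bases, the H4K8ac peak 1103, the H3K27ac peak 967 and the H3K9ac peak 1022. The H3K4me3 peak of 1697 bases reached over the start, while H4K8ac, H3K18ac, H3K27ac, H3K14ac and H2AK5ac had no base in the 2000 bases after it. Further inside the gene, a stretch from 12980 to 13312 held 6 lists without H3K4me3 and H3K9ac.

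Atf3 encodes a stress-induced factor that represses as a dimer with itself and can activate with Jun proteins, and spans chr1:191170296-191183333 on the minus strand. Peaks covered 8.33% of its window for H3K14ac, 6.47% for H4K8ac, 6.73% for H3K18ac, 6.81% for H3K27ac, 10.4% for H3K23ac, 3.46% for H2AK5ac, 9.27% for H3K4me3 and 14.1% for H3K9ac. Its start lay under all 8 lists, which shared the bases from -188 to 143, the whole of a 332-base H2AK5ac peak. A second place with all 8 lists stood upstream, from -1907 to -1429, with 129 shared bases. The promoter letters hold ACGTCA, which is TGACGT on the other strand, at -8 to -3.

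Maff encodes a small Maf protein, which has no activation domain of its own and pairs with factors such as NRF2, and spans chr15:79346621-79359078 on the plus strand. Its values were 13.96% of the window for H3K14ac, 17.4% for H4K8ac, 17.7% for H3K18ac, 13.9% for H3K27ac, 16.1% for H3K23ac, 10.2% for H2AK5ac, 10.5% for H3K4me3 and 18.2% for H3K9ac. No list covered the outermost of its 3 annotated starts. The middle start, at 79347520, lay under all 8 lists, and the last, at 79348402, under 7. The widest H3K4me3 peak had 1387 bases from 710, and the widest H3K9ac peak 1766 bases from 523. The letters before the middle start hold the full CRE, TGACGTCA, at -29 to -22, which 1.55% of the promoter windows hold.

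Maff also had an acetylated stretch inside the gene without H3K4me3, from 4391 to 5349. There H3K18ac had a peak of 764 bases, H4K8ac one of 668, H3K27ac one of 625, H3K9ac one of 539 and H3K23ac one of 376. For H3K18ac, H4K8ac and H3K27ac these were the widest peaks at the gene, wider than any beside its starts. At the far end of the window, 2 of the 62 peaks overlapped the neighbour Tmem184b.

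**Figure D2:**
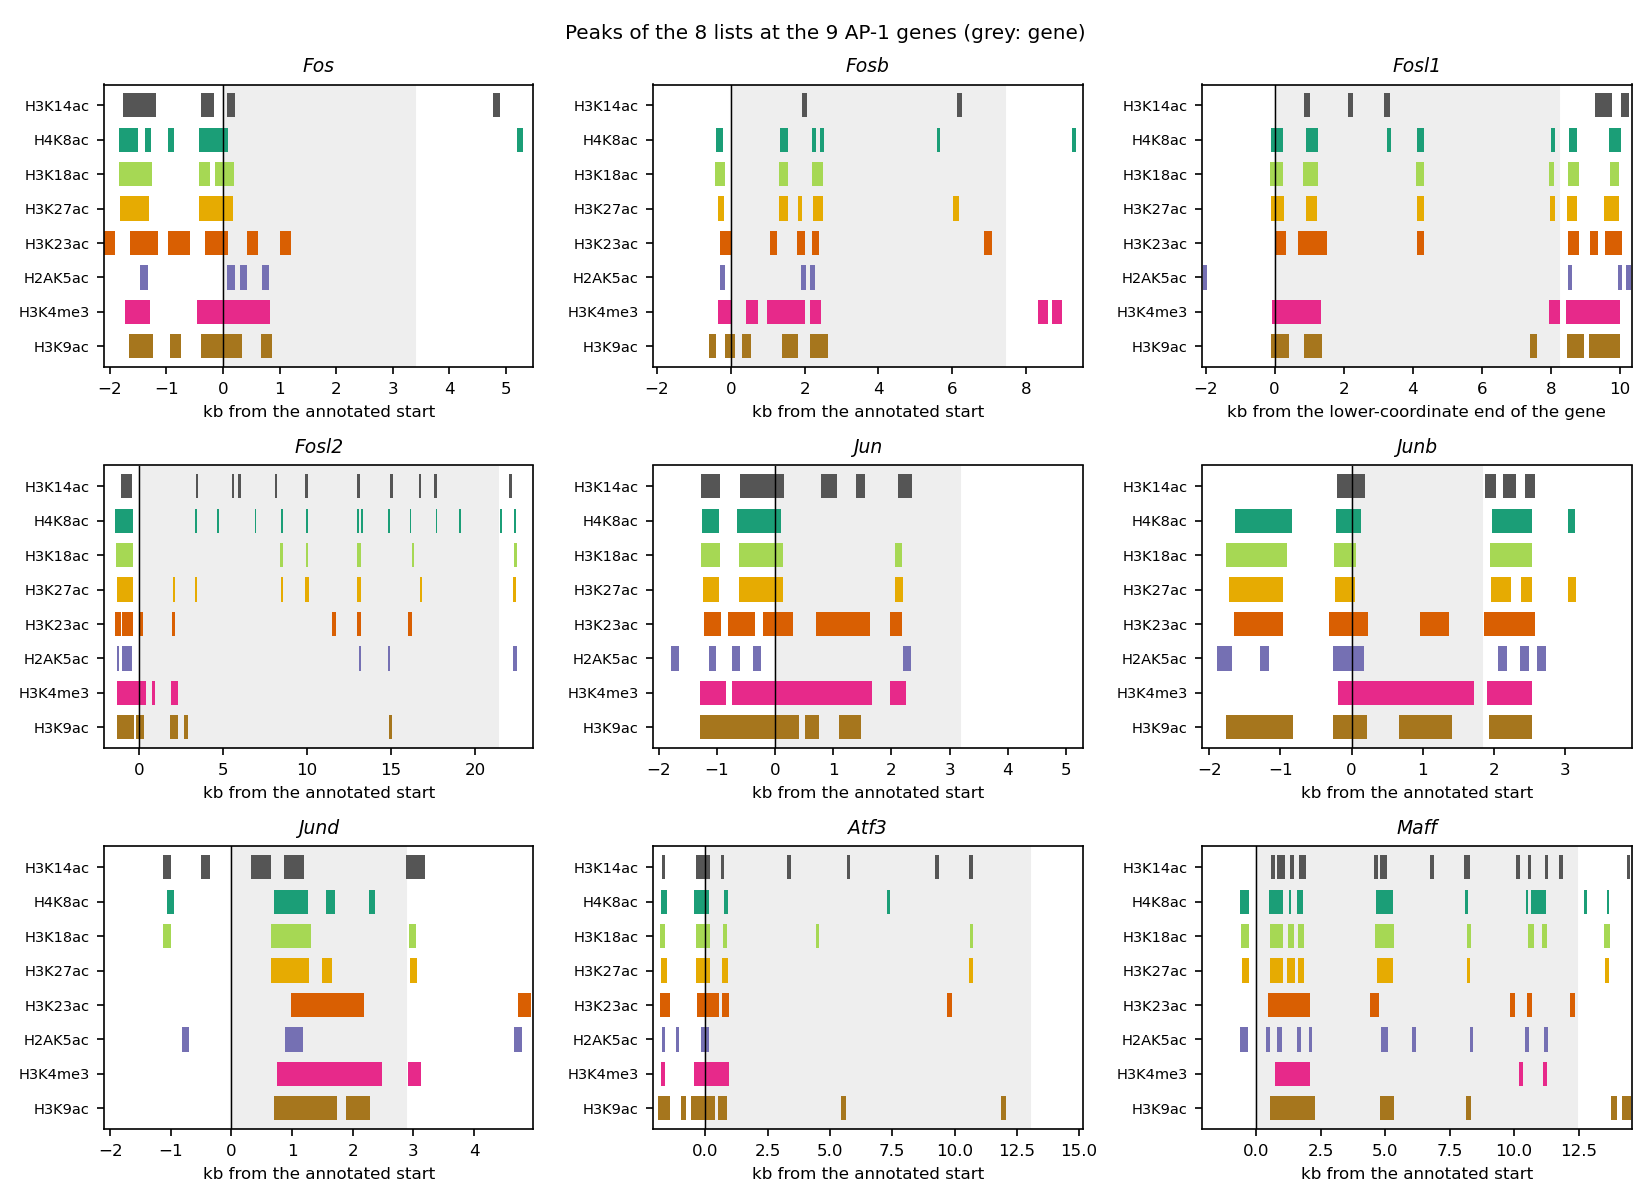
Every peak at the 9 AP-1 genes, 1 row for each list, against the distance in kb from the annotated start (for Fosl1 from the lower-coordinate end), with the gene in grey. H3K4me3 runs from the start into the gene at Jun, Junb and Atf3, and no peak covers the annotated start of Jund. The upstream peaks of all 7 acetylations at Fosl2 end before its start. H3K9ac and H3K23ac have a further, separate peak over that start.

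The TRE, TGANTCA, was in none of the 250-base windows of the 8 matched genes, the 3 of Maff included, and 6.75% of all windows hold it. GGGCGG, the Sp1 element, was in a window of 6 of the 8 genes, all but Junb and Jund, against 32.7% of all windows. A match of letters is a description, not a binding site.

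Joined where they overlapped, the 348 peaks formed 91 stretches. Of these, 46 held 1 list alone and 21 held 5 or more lists. H3K4me3 was present in 17 of the 21. The 4 without it were the upstream stretch of Junb, the stretch from 12980 in Fosl2 and 2 inside Maff, the second from 8041 to 8410. Stretches were not formed at other genes, so no share over all genes stands beside these counts.

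The side of the start on which peaks lay differed between the lists. Over the 8 genes with a start, 31.3% of the H4K8ac bases within 2 kb lay after the start, against 60.5% over all genes. For H3K18ac it was 33.5%, against 61.9%. For H3K27ac it was 38.4%, against 62.5%. For H2AK5ac it was 34.7%, against 54.2%, and for H3K14ac 46.8%, against 61.4%. Pooled over the 8 genes, most bases of these 5 acetylations lay before the start, and over all genes most lay after it. Gene by gene, more bases lay after the start at 4 of the 8 genes for H3K14ac (Fosb, Junb, Jund and Maff), at 3 each for H4K8ac, H3K27ac and H2AK5ac, and at 2 for H3K18ac. The matching share of all genes was not counted, so these counts describe the 8 genes alone.

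H3K4me3 showed little of this, with 68.4% of its bases after the start at AP-1 genes, against 70.6% over all genes. H3K23ac had 55.7% after the start, against 66.5%, and H3K9ac 53.3%, against 67.1%. The 8 genes were not alike. The 3 with more H4K8ac bases after the start were Fosb, Jund and Maff, and Jund and Maff are those with no peak over the outermost annotated start. The sides of Maff were measured from its outermost start, although its middle start lay under all 8 lists. More H3K4me3 bases lay after the start at 6 genes, all but Fos and Fosl2, again without a count over all genes.

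**Figure D3:**
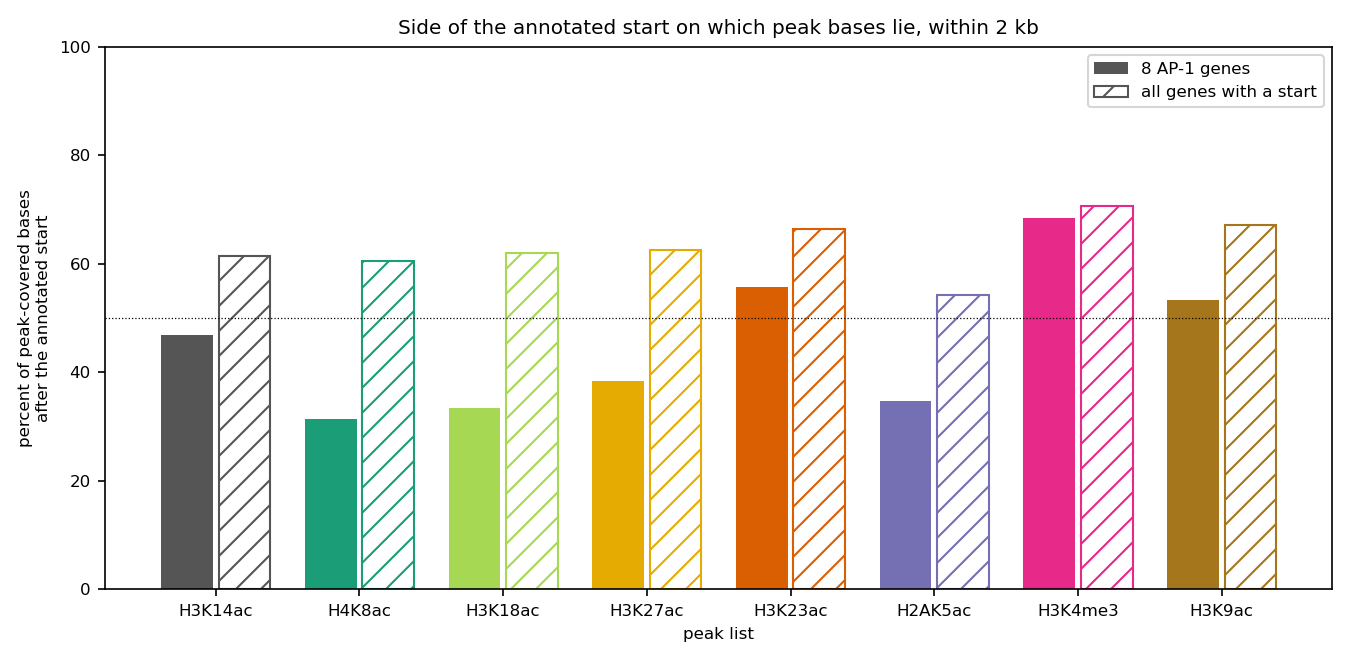
Percent of the bases under peaks within 2 kb of the annotated start that lie after it, for the 8 AP-1 genes with an annotated start (filled bars) and for all 17492 genes with one (hatched bars), by list. The dotted line marks an even split. H4K8ac, H3K18ac, H3K27ac, H2AK5ac and H3K14ac are below it at the AP-1 genes and above it over all genes.

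The lists overlapped unequally in the same 2 kb around the start. Of the H3K27ac bases at AP-1 genes, 92.3% also lay under H3K18ac, 87.1% under H4K8ac and 80.5% under H3K4me3, against 78.2%, 74.7% and 88.7% over all genes. Of the H3K4me3 bases at AP-1 genes, 43.6% lay under H3K27ac, 66.0% under H3K23ac and 75.1% under H3K9ac, against 52.9%, 53.0% and 53.6% over all genes. The share of H3K4me3 bases was thus larger under H3K9ac and H3K23ac than under H3K27ac at the AP-1 genes. Over all genes the 3 shares were nearly equal. Such a share depends on how many bases the other list covers. Within 2 kb of the start, the median AP-1 gene had 1010 bases under H3K27ac, 1560 under H3K23ac and 1619 under H3K9ac. Conversely, at the AP-1 genes 80.5% of the H3K27ac bases, 80.2% of the H3K23ac bases and 79.8% of the H3K9ac bases lay under H3K4me3. Over all genes the shares under H3K4me3 were 88.7% for H3K27ac, 80.8% for H3K23ac and 86.3% for H3K9ac. Whether H3K4me3 prefers H3K9ac or H3K23ac, beyond the bases that each covers, was not tested.

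Reads could be placed at few of these peaks. The deposited counting discards a read that touches regions of 2 identifiers, and the peaks of different lists overlap at the AP-1 genes: 11.8% of their peak bases were touched by 1 identifier alone, against 45.3% in the whole table. Counts below are from regions whose identifier has unshared bases nowhere else, as reads and as CPM. At Fosl2, Fosl1 and Maff all of these regions were of the H3K14ac list. Reads of the other marks there were thus counted outside the peaks of their own lists. Intervals are exact 95% Poisson intervals, which cover counting error only and take each read as independent. Each mate of a pair was counted on its own and the handling of duplicates is not given, so the intervals can be too narrow. IgG had 0 reads at every AP-1 gene with such a region, which by the limit of 3 counts allows up to 8.20 CPM and has an exact interval of 0 to 10.1 CPM. In the whole table IgG had reads at 0.156% of identifiers, so a count of 0 is the usual one for it. Few identifiers also had reads of H3K9ac (4.56%), H2AK5ac (5.39%), H3K23ac (10.5%) and H3K4me3 (11.2%), against 83.8% for H3K14ac.

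At Fosl2, 8 such regions held 138 H3K14ac reads, 61 H3K4me3 reads, 60 H3K27ac reads, 46 H3K23ac reads, 22 H4K8ac reads, 18 H2AK5ac reads, 12 H3K18ac reads and 0 H3K9ac reads. In CPM this was 41.3 for H3K4me3 (31.6 to 53.0), 23.7 for H3K27ac (18.1 to 30.5) and 13.7 for H3K14ac (11.5 to 16.2). All 46 H3K23ac reads and 44 of the 61 H3K4me3 reads fell in 1 region of the H3K14ac list, 138 bases wide, at 3358 to 3495. Another such region, at 22002 to 22189 past the gene end, held 52 of the 138 H3K14ac reads.

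At Fosl1, 3 regions of the H3K14ac list held 83 H3K9ac reads, 62 H3K4me3 reads, 44 H3K14ac reads, 42 H3K27ac reads, 23 H3K18ac reads, 5 H4K8ac reads and no reads of H3K23ac and H2AK5ac. H3K9ac stood at 51.0 CPM (40.6 to 63.2) and H3K4me3 at 42.0 (32.2 to 53.8), against 0 CPM (0 to 10.1) for IgG. Of the H3K9ac reads, 75 came from 1 region of 138 bases at 2117 to 2254, where neither H3K9ac nor H3K4me3 had a peak in its list. The H3K14ac library itself had 22 reads there.

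At Maff, 5 regions held 34 H3K14ac reads, 28 H4K8ac reads, 11 H3K18ac reads and 10 H3K27ac reads, and no reads of the other 4 marks. H4K8ac was at 16.0 CPM (10.6 to 23.1), with 27 of its 28 reads in 1 region at 11746 to 11883. At Fos the 1 region, past the gene end at 4764 to 4901, held 14 H3K14ac reads, 8 H3K27ac reads, 8 H4K8ac reads and 1 H3K4me3 read. Jun had 13 reads in 1 region and Fosb 8 in 2, summed over the libraries. Atf3 had no such region.

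**Figure D4:**
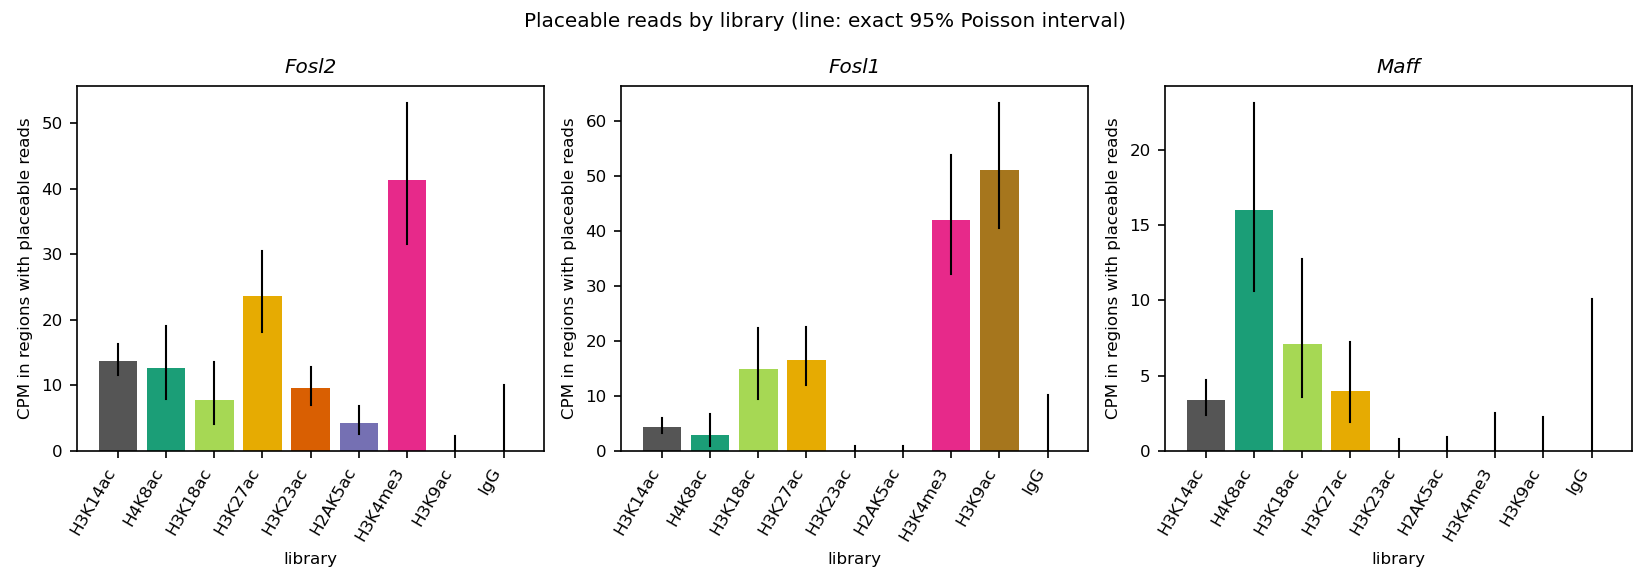
CPM in regions with placeable reads at Fosl2 (8 regions), Fosl1 (3) and Maff (5), by library. Lines are exact 95% Poisson intervals, which cover counting error only and take each read as independent. H3K4me3 is highest at Fosl2, H3K9ac at Fosl1 and H4K8ac at Maff. IgG has 0 reads at each, and in the whole table it has reads at 0.156% of identifiers. All regions are of the H3K14ac list, and the other marks are counted outside their own peaks. Of the reads of the highest library, 1 region held 44 of 61 at Fosl2, 75 of 83 at Fosl1 and 27 of 28 at Maff.

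At Junb and Jund these counts were 0 in every library. The 1 region at Junb had 6 unshared bases. At Jund, 5 regions had 0 reads in all 9 libraries, though 1 of them had 327 unshared bases. Jund lies in a stretch, chr8:70663501-70851643, in which all 11 wholly unshared regions with an identifier of their own had 0 reads in all 9 libraries. In the whole table this was so for 3.07% of 316289 such regions. The peaks of Jund are therefore seen in the lists alone, with no reads in the table to set beside them, and the cause was not tested.

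The 9 AP-1 genes had a median summed share of 123%, against 3 lists of genes that work beside them. All 8 lists were present at 12 of 14 other bZIP partner genes, with a median summed share of 47.6%. Maf had 151% and Mafk 118%, and the lowest were Atf7 at 11.2% and Batf2 at 6.87%. Of 17 kinases and factors that act on the Fos and Jun promoters, 15 had all 8 lists, with a median of 28.7%. Srf, the factor of the serum response element, had 85.8% and its partner Elk3 79.5%, and the kinase genes Map2k4 and Mapk8, which encode MKK4 and JNK1, had 14.6% and 9.07%. Of 14 other immediate-early genes 11 had all 8 lists, with a median of 121%. Dusp1, a phosphatase of MAP kinases, had 171% and Ier2 163%, and the zinc finger genes Egr2 and Egr3 had 26.3% and 25.6%. Within 2 kb of the annotated start, in windows of equal length, the median was 242% for the 8 AP-1 genes with a start, against 191% for 11 bZIP partner genes, 143% for 15 upstream genes and 172% for 11 other immediate-early genes.

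The gene most like each member, by the distance between their shares of the window over the 8 lists, was in no case another AP-1 gene. The other members are few among the 21887 genes compared. It was Gm38457 for Fos at a distance of 3.86 percentage points, H2ac8 for Fosb at 4.01, Arf6 for Fosl1 at 3.96, Gipc1 for Fosl2 at 2.39, Srsf2 for Jund at 4.28, Nabp2 for Atf3 at 2.23 and Hspb7 for Maff at 5.43. Jun and Junb stood farther from any other gene, with Gadd45g nearest to Jun at 10.7 and Pcbp1 nearest to Junb at 17.7. Within the family, Fos and Jund were 8.57 apart and Fosl2 and Atf3 6.69. At these distances, 57 genes were closer to Fos and 23 closer to Jund. For the other pair, 767 genes were closer to Fosl2 and 193 closer to Atf3.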

How the data were processed

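ACT-seq reads of 9 libraries from WT mouse lung endothelial cells, 1 for each of 8 histone marks and 1 for IgG, entered as the deposited table of counts. Per the file headers, the authors made these counts in featureCounts 2.0.6 over listed regions, in paired-end mode with each mate counted on its own, ignoring strand and discarding reads that touch several identifiers. The submitters' processing notes also name FastQC, MultiQC, Trim Galore, STAR, MACS2 and DESeq2, and the builds mm10 and GRCm38.p6. The sources used here do not give their settings, the handling of duplicates or whether IgG served as a control for peaks.

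The 578465 identifiers hold 1309635 regions. These were returned to 8 lists by genome order and width, and with order alone 99.94% of regions fell in the same list, the 348 at the AP-1 genes among them. The separation was tested on simulated data in which each list was shifted along the chromosomes independently, so the lists overlap otherwise than the real ones. The count of unshared bases was checked base by base on deposited regions of a single chromosome. Starts were counted from 0 in the table and are printed counted from 1. A peak was at a gene when it had at least 1 base in the span plus 2 kb (RefSeq, GRCm38.p6), and bases of a list were counted once. Reads were taken only where 1 region of an identifier has bases that no other identifier covers, and counts of 0 were given the limit of 3 counts. Promoter windows were the 250 bases before each RefSeq start.

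The 9 genes and the lists of partner, upstream, immediate-early and marker genes were chosen with earlier results of these data known. All 9 genes are named. Of the partner, upstream and immediate-early lists, the 2 genes with the highest and the 2 with the lowest summed share are named. Alternatives were peaks above the smallest width, an overlap of 100 bases, other windows, list assignment by order alone and, for reads, identifiers with 1 region. Python 3.11.15, numpy 2.4.6, pandas 2.3.3, SciPy 1.17.1 and matplotlib 3.10.9 were used.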

Additional observations from a re-analysis of the deposited data

How the results depend on the processing

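Of the values that answer a comparison, 50 stayed within 1.5 times and 19 moved. The 348 peaks became 228 when only those above the smallest width of their list were counted, 226 in the gene span alone and 177 within 2 kb of the annotated start, a window added after the data were seen and available for 8 genes. With wider peaks alone, 5 genes had all 8 lists. The median share of the window then became 8.53% for H3K14ac and 1.95% for H2AK5ac. In the span alone it became 4.05% for H2AK5ac, 6.78% for H3K14ac, 7.15% for H3K18ac, 7.45% for H4K8ac and 8.35% for H3K27ac. Within 2 kb of the start it became 13.8% for H2AK5ac, 21.8% for H3K14ac, 25.2% for H3K27ac, 26.1% for H3K18ac, 26.3% for H4K8ac, 39.0% for H3K23ac, 43.2% for H3K4me3 and 40.5% for H3K9ac. Other windows hold other bases by construction. Of the other values 77 stayed and 3 moved: H3K14ac reads at Fos became 0 in the span alone and with identifiers of 1 region, and those at Fosl2 became 86 in the span alone. No paired analysis was possible because each target has 1 library. Depth limits the reads at single genes, most for IgG, and overlap of lists leaves few bases where reads can be placed.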
